A study of Mus musculus with 6 samples.

Results

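The genes described here act in mitosis, the step in which a cell divides its copied chromosomes. They are 45 genes for mitotic kinases and cyclins, the spindle checkpoint, centromere and kinetochore proteins, spindle motors and cytokinesis. They were chosen by name for their function, with earlier results of these data known. All 45 matched 1 identifier each among the 55335 mouse Ensembl identifiers of the table. RNA was sequenced from RAW 264.7 cells, a mouse macrophage line of wild-type genotype per the labels, in 2 groups of 3 libraries. Both groups received lipopolysaccharide (LPS), the outer membrane glycolipid of Gram-negative bacteria that triggers inflammatory signalling, at 200 ng/ml for 8 h. The LPS group had no other treatment. The other group was also exposed to ultrasound for 10 min in that period, with an intensity of 50 mW/cm², a frequency of 1 MHz, a duty cycle of 20% and pulses of 200 µs repeated at 1 kHz. Cells without LPS and cells with ultrasound alone were not analysed here, and the labels mention neither a sham exposure nor whether libraries came from separate cultures. The p-values therefore weigh differences only against library-to-library spread, possibly of technical origin.

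Mitosis is driven by cyclin-dependent kinase 1 with its B-type cyclins and by the Polo and Aurora kinases. Chromosomes attach to spindle microtubules through kinetochores built on the centromere, and the spindle checkpoint blocks the anaphase-promoting complex, a ubiquitin ligase, until every kinetochore is attached. Most of these genes are transcribed mainly in G2 and mitosis and are repressed in resting cells, so their summed RNA in a culture is widely used as a sign of dividing cells. In many of their promoters a short element called the cell cycle genes homology region (CHR) and CCAAT boxes, which bind the factor NF-Y, are known to set this timing. RAW 264.7 cells divide continuously in culture.

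All identifiers were mouse ones and the markers were those of macrophages, whereas the extraction text in the labels describes rat muscle. Of 11 macrophage markers, 10 averaged 1 FPKM or more (fragments counted relative to transcript length and library depth), and none of 14 skeletal muscle, 8 fibroblast, 6 T cell, 5 B cell and 6 endothelial markers did. The summed macrophage markers ran from 2653 to 2857 FPKM with LPS and from 2701 to 2930 with ultrasound, and the summed muscle markers from 0.956 to 1.53 and from 0.924 to 1.43. The summed fibroblast markers ran from 0.492 to 0.796 with LPS and from 0.777 to 0.960 with ultrasound, and the T cell markers from 0.0854 to 0.127 and from 0.0784 to 0.157. The groups did not overlap for the summed B cell markers, at 0.495 to 0.770 with LPS and 0.133 to 0.395 with ultrasound, or for the endothelial markers, higher with ultrasound at 0.454 to 0.736 and 0.815 to 1.22. Their part in the results was not tested. LPS library 2 stood apart on principal component 1, which held 41.9% of the variance, at -28.8 against -2.03 to 17.7 for the other libraries.

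The mitotic genes lay lower with ultrasound as a set of small differences, none of which passed the test. Testing required an average of 1 FPKM or more across all 6 libraries, which 40 of the 45 members and 11270 genes in all met. Of the 40, 37 had a lower mean log2(FPKM + 1) with ultrasound, against 53.9% of all tested genes, and the median difference was -0.21 against -0.02. Bub1b, a checkpoint kinase gene, had the largest difference at -0.73 ± 0.10 (standard error), followed by the centromeric histone gene Cenpa at -0.57 ± 0.09 and the checkpoint kinase gene Bub1 at -0.55 ± 0.16. Fewer dividing cells and less of these RNAs per dividing cell cannot be told apart in such bulk RNA.

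In limma's test with Benjamini-Hochberg adjustment over all tested genes, 0 of the 40 members passed 0.05 in either direction. The background was 0% of tested genes called lower and 0.0177% called higher. At an unadjusted limma p below 0.05, 7 members were lower and 0 higher, where 9.16% of all tested genes were lower and 6.18% higher. The groups did not overlap for 12 members, each with all 3 ultrasound libraries below all 3 LPS libraries, against 13.4% of tested genes. No member had all ultrasound libraries above all LPS libraries, as 9.8% of tested genes did. In 29 members the ultrasound library was lower in each of the 3 same-numbered pairs, against 30.9% of tested genes. With the replicate number as a block, 20 members were lower at an unadjusted p below 0.05, against a background of 17.1%, and 0 passed after adjustment, where 0.0799% of tested genes were called lower and 0.0355% higher. The count of 7 became 4 without LPS library 2, 13 without LPS library 3, and 3, 12 and 3 without ultrasound library 1, 2 and 3. The share of all tested genes was then 6.25%, 8.42%, 5.66%, 10.1% and 6.09%, in the same order. The count of 12 became 27 without LPS library 3 and 21 without ultrasound library 2, and was 11 to 15 without each of the others. No overlap is easier to reach with fewer libraries, and the shares of all tested genes in these settings were not computed.

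**Figure D1:**
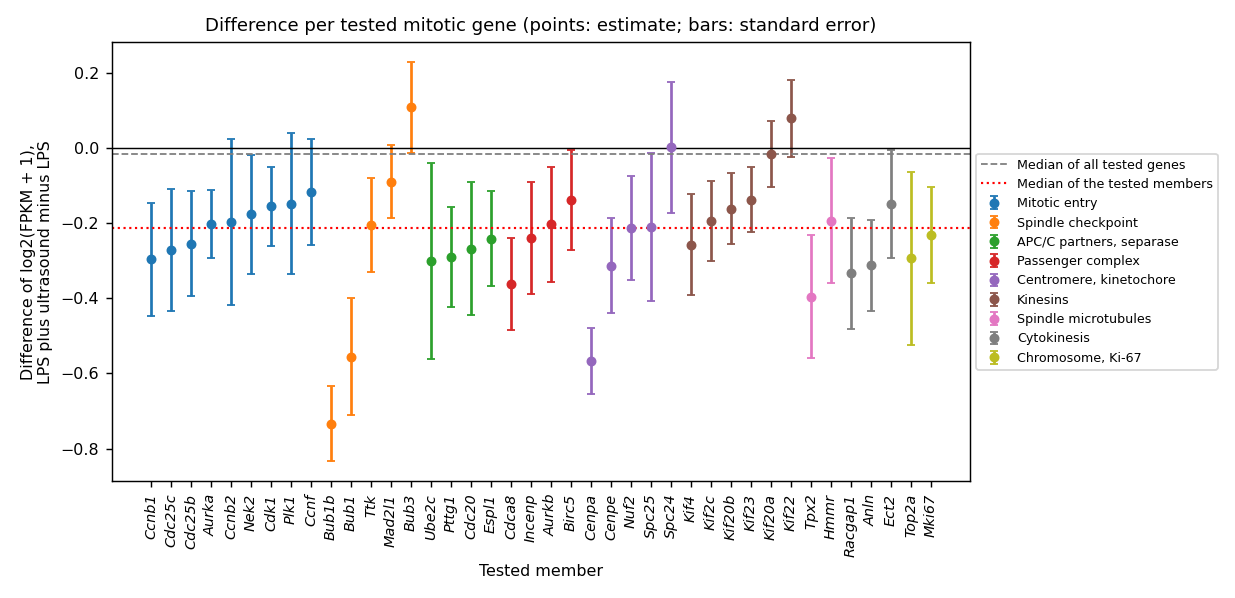
Log2(FPKM + 1) with LPS plus ultrasound minus that with LPS alone, for the 40 tested mitotic genes grouped by role; points are limma estimates and bars are standard errors. Of the points 37 lie below 0, with Bub1b, Cenpa and Bub1 lowest, and Bub3, Kif22 and Spc24 at or above 0.

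The level of the members also varied between libraries of a group. Their summed level was 175, 210.4 and 158 FPKM in LPS libraries 1, 2 and 3 and 145, 157 and 126 FPKM in ultrasound libraries 1, 2 and 3. All ultrasound sums lay below all LPS sums, although ultrasound library 2 and LPS library 3 nearly met. Bub1b alone, at 21.3 FPKM in LPS library 3 and 12.6 in ultrasound library 2, differed by more than these sums. The groups overlapped in the median deviation of the members from their mean log2(FPKM + 1). It was 0.006 in ultrasound library 2 and -0.044 in LPS library 3. LPS library 2 was the highest of the 6 for 31 of the 45 members, where 27.6% of all tested genes were highest there. Ultrasound library 3 was the lowest for 30 of the 45, where 23.2% of all tested genes were lowest there. Many members thus moved together by library, so counts of members are not counts of separate observations. Within groups, the median deviation of the members had an SD of 0.157 between libraries. The part of this library variation in the group difference was not tested. Without LPS library 2, 31 of 35 tested members were lower, with a median of -0.15 in place of -0.21, and without both libraries numbered 2, 33 of 35 with a median of -0.24.

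**Figure D2:**
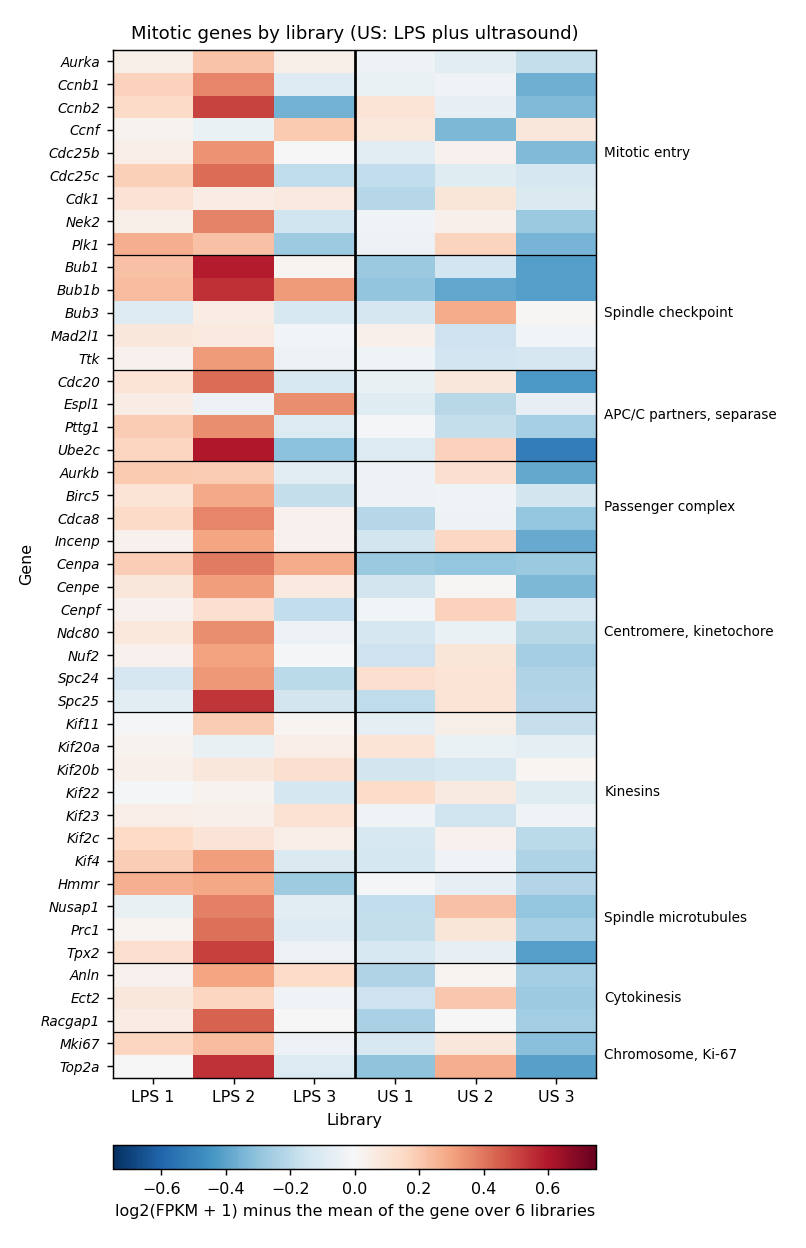
Level of each of the 45 mitotic genes in each library, as log2(FPKM + 1) minus the mean of that gene over the 6 libraries (red above, blue below), with genes grouped by role. LPS library 2 is the highest for 31 genes and ultrasound library 3 the lowest for 30.

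Most promoters of the members held the elements known for this class of genes, which the choice of genes did not use. RefSeq promoter windows (GRCm38.p6), each covering 250 bases before to 50 bases after an annotated start, were found for 39 of the 45 members. Not found were Aurkb, Cdc25c, Incenp, Kif20a, Spc24 and Tpx2. The CHR core TTTGAA lay on either strand in 29 of the 39 (74.4%), against 20.2% of the 27025 genes in the table. It began within 45 bases of the start in 27 members (69.2%), against 5.39% of all genes. A CCAAT box on either strand was found in 30 members (76.9%) against 41.1%, and 18 members (46.2%) held the CHR core with 2 or more CCAAT boxes in the same window, against 2.42%. The core variant TTCGAA was present in 4 members (10.3%) against 1.8%. E2F cores (TTCCCGC or TTCGCGC or TTGCCGC or TTGGCGC), known from genes of the earlier G1/S phase, were in 5 members (12.8%) against 10.9%. Of the 7946 tested genes with a window, 20.0% held an E2F core and 14.2% the CHR core. In the G1/S and replication genes used for comparison the order was the other way round, with E2F cores in 19 of 32 and the CHR core in 3 of 32.

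The windows of the 5 members with the smallest limma p that hold the CHR core are shown because they place these elements beside members described in full. They run 5′ to 3′ on the coding strand of each gene, with capitals marking the CHR core and CCAAT boxes on either strand (TTTGAA or TTCAAA for the core and CCAAT or ATTGG for the box). The windows are Bub1b (chr2:118597961-118598260, plus strand), Cenpa (chr5:30666636-30666935, plus), Cdca8 (chr4:124936868-124937167, minus), Anln (chr9:22389157-22389456, minus) and Racgap1 (chr15:99651607-99651906, minus).
Bub1b: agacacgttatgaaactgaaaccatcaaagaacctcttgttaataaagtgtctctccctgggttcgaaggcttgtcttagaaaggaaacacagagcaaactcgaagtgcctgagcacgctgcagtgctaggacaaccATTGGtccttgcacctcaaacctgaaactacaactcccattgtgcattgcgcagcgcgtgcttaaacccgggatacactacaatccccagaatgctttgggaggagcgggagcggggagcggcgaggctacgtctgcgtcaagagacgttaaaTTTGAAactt
Cenpa: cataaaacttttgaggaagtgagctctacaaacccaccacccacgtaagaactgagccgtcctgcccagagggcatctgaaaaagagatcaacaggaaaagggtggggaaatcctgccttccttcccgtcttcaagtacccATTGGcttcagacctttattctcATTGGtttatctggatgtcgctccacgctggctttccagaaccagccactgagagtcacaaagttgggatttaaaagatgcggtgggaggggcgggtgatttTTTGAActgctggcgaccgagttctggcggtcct
Cdca8: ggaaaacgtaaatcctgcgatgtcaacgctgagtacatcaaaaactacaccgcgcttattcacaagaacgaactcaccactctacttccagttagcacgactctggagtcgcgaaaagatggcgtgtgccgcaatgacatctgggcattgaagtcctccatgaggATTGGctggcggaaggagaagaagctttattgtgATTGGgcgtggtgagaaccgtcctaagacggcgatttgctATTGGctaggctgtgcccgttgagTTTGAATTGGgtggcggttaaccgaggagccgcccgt
Anln: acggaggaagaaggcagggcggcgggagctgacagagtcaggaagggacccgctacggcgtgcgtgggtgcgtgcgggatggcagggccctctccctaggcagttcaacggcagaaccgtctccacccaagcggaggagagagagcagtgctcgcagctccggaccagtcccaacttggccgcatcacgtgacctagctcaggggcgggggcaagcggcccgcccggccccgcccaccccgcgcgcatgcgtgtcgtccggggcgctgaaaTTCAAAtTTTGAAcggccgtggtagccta
Racgap1: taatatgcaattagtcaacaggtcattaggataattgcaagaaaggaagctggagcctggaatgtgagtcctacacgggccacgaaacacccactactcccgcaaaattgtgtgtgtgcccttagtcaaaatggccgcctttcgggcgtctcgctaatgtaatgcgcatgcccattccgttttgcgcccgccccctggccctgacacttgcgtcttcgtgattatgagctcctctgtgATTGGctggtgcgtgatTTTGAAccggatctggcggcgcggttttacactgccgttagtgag
The CHR core began 41 bases after the start of Bub1b, 17 after that of Cenpa, 14 after that of Cdca8 and 6 after that of Racgap1. Anln held it at 29 and, in the reverse orientation, at 22. Cenpa had CCAAT boxes 109 and 86 bases before the start and Bub1b had 1 at 113 bases before it. Cdca8 had 4, of which the last shares a base with its CHR core, and Anln had none in this window. The 25 tested members with the core had a median log2 difference of -0.20 and the 9 without it -0.255. These values were not tested against each other. Bub3, Kif22 and the untested Cenpf, the members with a window whose mean FPKM was higher with ultrasound, each held the core and 2 CCAAT boxes. A match describes letters in a window and does not show that a factor binds there.

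**Figure D3:**
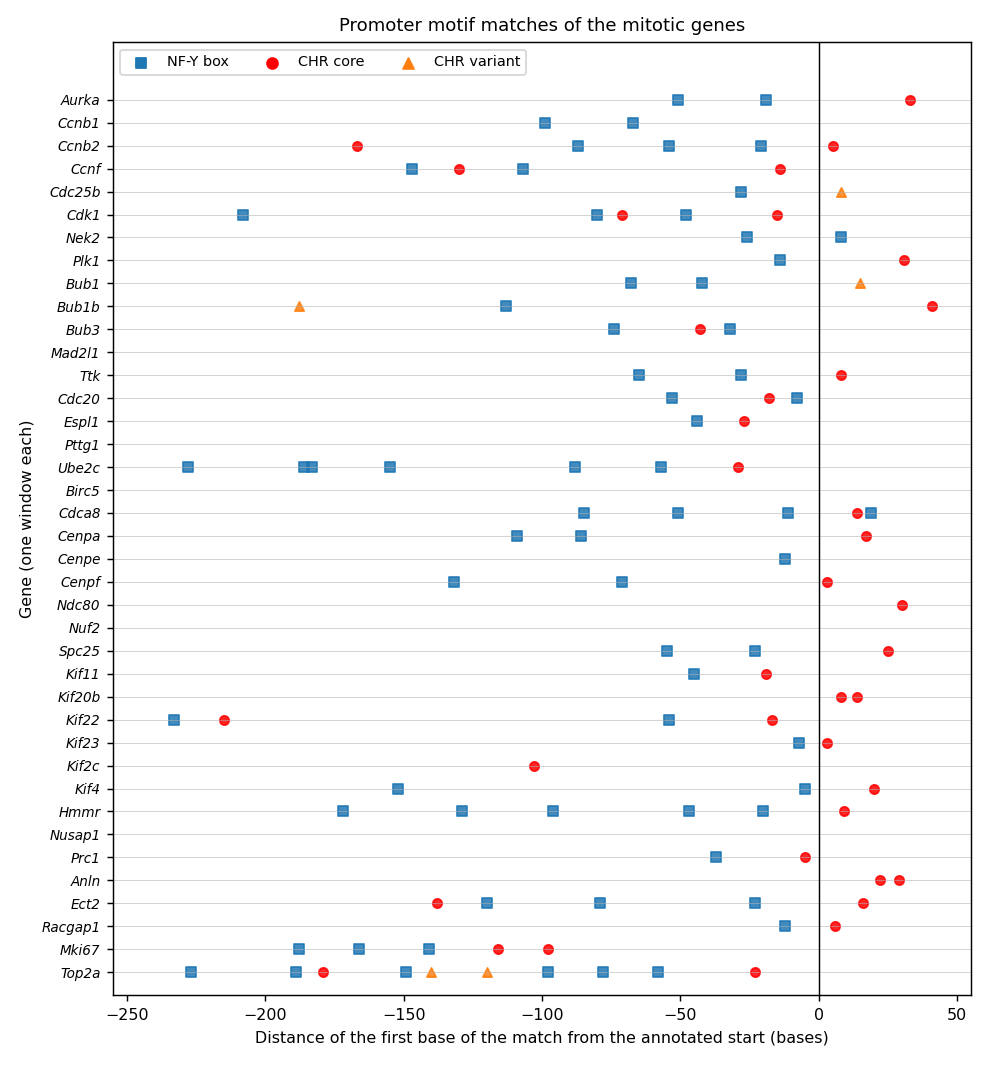
Matches to the CHR core (circles), its variant (triangles) and the NF-Y box, that is the CCAAT box (squares), on either strand in 1 promoter window of each of 39 mitotic genes, by distance from the annotated start. The CHR core begins within 45 bases of the start in 27 genes, and Mad2l1, Birc5, Pttg1, Nuf2 and Nusap1 hold none of the 3 elements in the window drawn.

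Among the 5 spindle checkpoint genes, Bub1b and Bub1 were lower with ultrasound in every library and Bub3 was not. Bub1b encodes BubR1, a component of the complex that inhibits the anaphase-promoting complex. It had 20.0, 25.2 and 21.3 FPKM in LPS libraries 1, 2 and 3 and 13.6, 12.6 and 12.4 with ultrasound. The groups were far apart, and the ultrasound libraries differed little from each other (22.1 ± 2.69 and 12.9 ± 0.616 FPKM, SD, n = 3 each). The ultrasound mean was 41.9% lower, with a log2 difference of -0.73 ± 0.10 (limma, Benjamini-Hochberg, adjusted p = 0.13, or 0.058 once replicate number was blocked). Over the alternatives its limma adjusted p ran from 0.022, with library weights, to 0.38, without ultrasound library 1. Bub1b was also the most abundant member per length.

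Bub1, a kinase gene whose product recruits checkpoint proteins to the kinetochore, had 6.45, 8.63 and 5.49 FPKM with LPS and 4.28, 4.79 and 3.80 with ultrasound. All ultrasound values lay below all LPS values, by 37.4% on the means (log2 difference -0.55 ± 0.16, limma, adjusted p = 0.22). Ttk, the checkpoint kinase MPS1, had 1.07, 1.53 and 0.966 against 0.979, 0.834 and 0.855 FPKM, with groups that overlapped. Mad2l1, which encodes the checkpoint protein MAD2, differed by -0.09 ± 0.10. Bub3, which encodes the partner that anchors BUB1 and BubR1 at kinetochores, had 8.59, 9.65 and 8.43 FPKM with LPS and 8.40, 11.5 and 9.31 with ultrasound. Its difference of 0.11 had a 95% interval from -0.17 to 0.39 in limma, and turned to -0.01 without ultrasound library 2.

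At the centromere and kinetochore, 4 of 5 tested genes were lower, where 53.9% of all tested genes were, and 2 were lower with no overlap between groups, where 13.4% were. Cenpa encodes the histone H3 variant that marks centromeres. Its level was 5.70, 6.70 and 6.13 FPKM with LPS and 3.85, 3.82 and 3.85 with ultrasound. The 3 ultrasound libraries nearly coincided, 37.9% below the LPS mean (log2 difference -0.57 ± 0.09, limma, Benjamini-Hochberg, adjusted p = 0.13, or 0.058 once replicate number was blocked). Over the alternatives the limma adjusted p of Cenpa ran from 0.024, with library weights, to 0.38, without ultrasound library 1. Cenpe, a kinesin gene for kinetochore movement along microtubules, had 2.17, 2.70 and 2.13 against 1.71, 2.00 and 1.36 FPKM, with every ultrasound library lower.

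The NDC80 complex is the part of the kinetochore that grips microtubules, and 3 of its 4 subunit genes passed the filter; differences between the subunits were not tested. Nuf2 had 1.05, 1.46 and 0.985 FPKM with LPS and 0.798, 1.13 and 0.679 with ultrasound, lower in each pair but overlapping as groups. Spc25 differed by -0.21 ± 0.20, and by 0.00 once LPS library 2 was left out. Spc24, the subunit with the fewest fragments behind it, had nearly equal means of 1.07 ± 0.432 and 1.06 ± 0.268 FPKM (SD, n = 3 each). Ndc80 itself stayed under the filter at 0.910, 1.30 and 0.749 against 0.654, 0.742 and 0.565 FPKM, with no overlap between the groups. Cenpf, a large kinetochore protein gene, was the least abundant member, at 0.278 to 0.584 FPKM with LPS and 0.329 to 0.634 with ultrasound, also under the filter and not lower.

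The chromosomal passenger complex, which corrects faulty attachments and later steers cytokinesis, was lower in all 4 tested subunit genes, against 53.9% of all tested genes. Cdca8, which encodes borealin, had 3.49, 4.24 and 3.14 FPKM with LPS and 2.50, 2.96 and 2.32 with ultrasound, with no overlap (log2 difference -0.36 ± 0.12, limma, adjusted p = 0.26). The scaffold gene Incenp had 8.97, 11.0 and 8.95 against 7.84, 9.87 and 6.50 FPKM. The kinase gene Aurkb had 3.08, 3.06 and 2.38 against 2.47, 2.87 and 1.73 FPKM. In both, each ultrasound library was below the LPS library of its number, while the groups overlapped. Birc5, the survivin gene, differed least of the 4, by -0.14 ± 0.13.

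**Figure D4:**
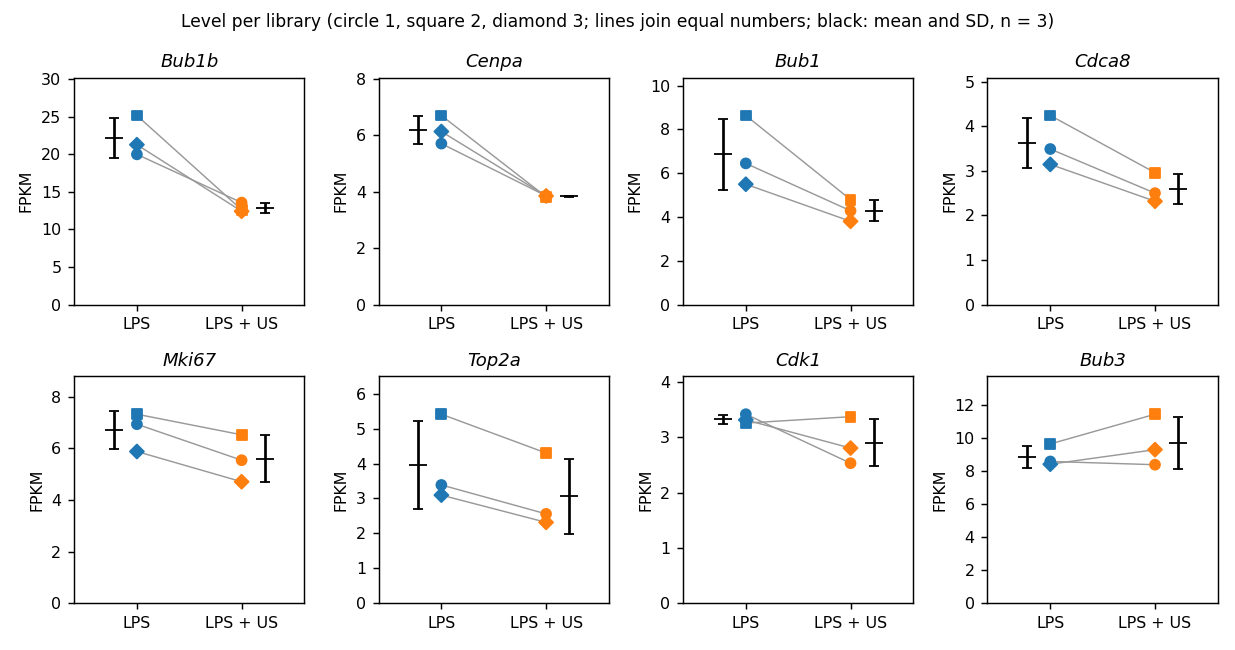
FPKM of 8 mitotic genes in each library (blue, LPS; orange, LPS plus ultrasound); symbols give the library number, grey lines join equal numbers, and black marks give mean and SD (n = 3). The groups are separate for Bub1b, Cenpa, Bub1 and Cdca8 and overlap for Mki67, Top2a, Cdk1 and Bub3.

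All 9 genes of mitotic entry were lower on the mean, by log2 differences of -0.30 to -0.12, where 53.9% of all tested genes were lower. None had an unadjusted limma p below 0.05, where 9.16% of all tested genes were lower at that p. Cdk1, the central mitotic kinase gene, had 3.41, 3.25 and 3.31 FPKM with LPS and 2.53, 3.37 and 2.80 with ultrasound. Ultrasound library 2 lay within the LPS values, and the difference of -0.15 had a 95% interval from -0.40 to 0.09 in limma. Its cyclin partner Ccnb1 had 5.73, 6.69 and 4.57 against 4.76, 4.84 and 3.62 FPKM, lower in each pair. The second B-type cyclin gene, Ccnb2, was higher in the ultrasound library of pair 3, and its difference moved from -0.20 to 0.01 without LPS library 2.

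Aurka, a kinase gene for centrosome maturation, was the one entry gene whose groups did not overlap, at 5.07, 5.80 and 5.06 against 4.73, 4.53 and 4.19 FPKM. That is 1 of 9 entry genes (11.1%), near the 13.4% of all tested genes that were lower with no overlap. Cdc25b, a phosphatase gene that activates cyclin-dependent kinases, had 1.92, 2.56 and 1.82 against 1.66, 1.88 and 1.24 FPKM. Plk1, the Polo-like kinase gene, had 5.82, 5.57 and 3.66 FPKM with LPS and 4.47, 5.33 and 3.44 with ultrasound. The spread within each group exceeded the difference for Plk1, at -0.15 ± 0.19. Cdc25c, the centrosomal kinase gene Nek2 and Ccnf, which encodes a ubiquitin ligase subunit, differed by -0.27 ± 0.16, -0.18 ± 0.16 and -0.12 ± 0.14. Ccnf turned to 0.02 without ultrasound library 2.

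Genes that act at the metaphase to anaphase switch were lower in each same-numbered pair in all 4 cases, against 30.9% of all tested genes. None of the 4 had an unadjusted limma p below 0.05, where 9.16% of all tested genes were lower at that p. Cdc20, the activator of the anaphase-promoting complex, had 9.12, 11.6 and 7.67 FPKM with LPS and 8.07, 9.00 and 5.98 with ultrasound. The groups overlapped, and in both of them library 2 was the highest and library 3 the lowest. Pttg1, the securin gene, had 8.34, 9.43 and 6.63 against 7.14, 6.25 and 5.90 FPKM. Espl1, the separase gene for cohesin cleavage, was separate between groups at 1.61, 1.43 and 2.19 against 1.36, 1.17 and 1.40 FPKM. The ubiquitin-conjugating enzyme gene Ube2c varied widely, from 1.74 to 4.15 FPKM with LPS and 1.37 to 2.82 with ultrasound.

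The 7 mitotic kinesin genes had the smallest differences of the roles, with a median of -0.15 over the 6 tested. None had an unadjusted limma p below 0.05, where 9.16% of all tested genes were lower at that p. Kif4, a chromosome-arm motor gene, had 2.00, 2.28 and 1.45 FPKM with LPS and 1.41, 1.59 and 1.25 with ultrasound. Kif2c, a microtubule depolymerase gene, had 1.22, 1.14 and 1.07 against 0.845, 1.05 and 0.739 FPKM, and Kif20b 1.72, 1.81 and 1.88 against 1.41, 1.44 and 1.68. Every ultrasound library was below every LPS library for Kif2c, Kif20b and the cytokinesis motor gene Kif23, which differed by -0.14 ± 0.09. These are 3 of the 6 tested, against 13.4% of all tested genes. Kif20a, another cytokinesis motor gene, had means of 5.24 ± 0.237 and 5.18 ± 0.409 FPKM (SD, n = 3 each), with a 95% interval of the log2 difference from -0.22 to 0.19 in limma. Of the exonic bases of Kif20a, 29.3% lie opposite exons of Cdc23 in the GENCODE M21 annotation, and reads of the 2 genes cannot be told apart without strand. Kif22 was the one tested member that was higher in each pair, at 2.38, 2.48 and 2.12 FPKM with LPS and 2.76, 2.58 and 2.21 with ultrasound. Kif11, the motor gene that separates the spindle poles, stayed under the filter at 0.868 to 1.15 and 0.669 to 0.942 FPKM.

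Spindle microtubule and cytokinesis genes were lower in all 5 tested cases, against 53.9% of all tested genes. Tpx2, which encodes an activator of Aurora A and nucleator of spindle microtubules, had 9.29, 12.4 and 8.16 FPKM with LPS and 7.69, 8.04 and 6.09 with ultrasound, with no overlap (log2 difference -0.40 ± 0.16). Hmmr had 2.70, 2.77 and 1.56 against 2.06, 1.95 and 1.65 FPKM, lower in 2 of the 3 pairs. Anln, the actin-binding anillin gene, had 1.90, 2.48 and 2.12 against 1.42, 1.87 and 1.37 FPKM, again without overlap. Racgap1, a GTPase-activating subunit gene of the central spindle, had 2.41, 3.46 and 2.28 against 1.77, 2.29 and 1.73 FPKM, and the highest ultrasound value just passed the lowest LPS value. Its partner Ect2, the exchange factor gene for RhoA, had 1.49, 1.63 and 1.31 against 1.11, 1.70 and 0.950 FPKM. Prc1 and Nusap1, which encode microtubule bundling proteins, were under the filter and lower in each pair, with means of 1.11 and 0.794 FPKM for Prc1 and 1.10 and 0.868 for Nusap1.

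The proliferation marker Mki67, which encodes a chromosome surface protein, had 6.94, 7.32 and 5.88 FPKM with LPS and 5.54, 6.53 and 4.71 with ultrasound. Top2a, the gene for the topoisomerase that untangles chromosomes, had 3.39, 5.41 and 3.10 against 2.56, 4.30 and 2.32 FPKM. Both genes were lower in each pair, by 16.7% and 22.8% on the means, and overlapped as groups, with ultrasound library 2 above LPS library 3. The log2 differences were -0.23 ± 0.13 and -0.29 ± 0.23 (limma, adjusted p = 0.42 and 0.56).

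Genes of the same machinery outside the 45 were lower in 71 of 88 tested cases over 6 lists, with a median of -0.14, against 53.9% of all tested genes lower and a median of -0.02. At an unadjusted limma p below 0.05, 8 of the 88 were lower (9.09%), near the 9.16% of all tested genes, and 1 was higher. Of the other spindle, kinesin and cytokinesis genes, 22 of 22 tested were lower with a median of -0.23, and 3 of the 22 (13.6%) had an unadjusted p below 0.05, beside the same 9.16%. They include Pkmyt1, which encodes an inhibitory kinase of CDK1, at 4.05 ± 0.539 and 2.42 ± 0.467 FPKM (SD, n = 3 each), Spag5 at 2.66 ± 0.606 and 1.81 ± 0.247, and the microtubule polymerase gene Ckap5 at 9.90 ± 1.02 and 7.96 ± 1.07. The other centromere and kinetochore genes were lower in 20 of 24, with a median of -0.14. Of the 4 that were higher, 2 were higher in each same-numbered pair. Among these was Zwint, the most abundant gene of this list, at 50.9 ± 6.05 FPKM with LPS and 60.6 ± 7.66 with ultrasound. Hjurp, the chaperone gene that deposits the CENP-A protein, had 14.8 ± 0.534 and 12.3 ± 1.26 FPKM, Cenpw 2.95 ± 0.122 and 2.32 ± 0.328, and Ska3 3.27 ± 0.468 and 2.59 ± 0.274. Condensin genes were lower in 6 of 8 (median -0.20), with Smc4 at 11.0 ± 1.81 and 7.88 ± 0.347 FPKM, Ncapg at 2.54 ± 0.575 and 1.85 ± 0.233, and Ncapd2 at 4.85 ± 0.583 and 3.97 ± 0.457.

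Other checkpoint and cohesion guard genes were lower in 6 of 8, with a median of -0.12, against 53.9% of all tested genes lower. The shugoshin genes Sgo1 and Sgo2a, which protect centromeric cohesion, had 1.62 ± 0.357 and 1.04 ± 0.211 FPKM and 1.41 ± 0.253 and 0.993 ± 0.272. Zw10, which also serves in membrane traffic, was higher in every ultrasound library, at 41.2 ± 4.55 and 46.8 ± 1.19 FPKM. Genes of the anaphase-promoting complex, 10 of 17 lower, had a median of -0.05, against -0.02 for all genes. Anapc7 had 13.1 ± 0.627 and 11.2 ± 0.490 FPKM, Anapc2 20.8 ± 4.09 and 16.0 ± 3.91, and Anapc16 was higher, at 3.21 ± 0.236 and 3.92 ± 0.10. Cohesin genes had a median of -0.04, with Pds5b at -0.20 ± 0.11, Rad21 at -0.08 ± 0.08 and Stag2 at 0.13 ± 0.09. None of these genes passed limma's adjusted threshold.

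**Figure D5:**
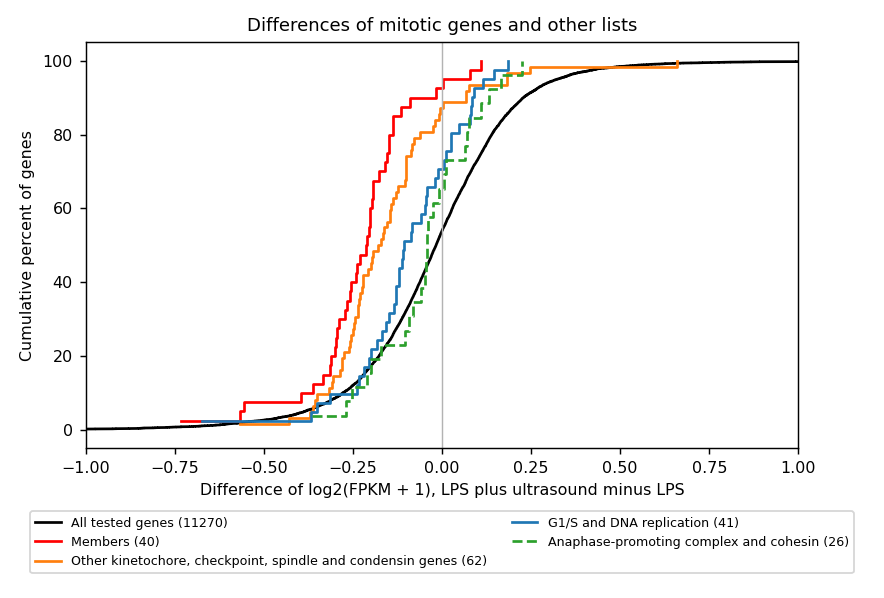
Cumulative percent of genes by their log2(FPKM + 1) with LPS plus ultrasound minus that with LPS alone, for all 11270 tested genes, the 40 tested mitotic genes and 3 comparison sets. The median of the mitotic genes is -0.21, that of the G1/S and replication genes -0.11 and that of all genes -0.02, while the anaphase-promoting complex and cohesin curve is centred at -0.04.

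The G1/S and DNA replication genes, the nearest neighbouring class, were lower in 29 of 41 with a median of -0.11, against 53.9% of all tested genes lower. At an unadjusted limma p below 0.05, 4 of the 41 were lower (9.76%), near the 9.16% of all tested genes. Ccne1, the cyclin E gene that drives entry into S phase, had 8.73 ± 2.09 FPKM with LPS and 5.03 ± 0.760 with ultrasound. Orc6, an origin recognition subunit gene, had 8.60 ± 0.805 and 6.71 ± 0.301, and the clamp loader gene Rfc3 2.91 ± 0.476 and 2.02 ± 0.106. Whether the mitotic and G1/S genes differ from each other was not tested.

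Known regulators of mitotic gene transcription showed no common direction, with 9 of 18 lower and a median of 0.00, against 53.9% of all tested genes lower. Foxm1, the forkhead factor gene for G2/M expression, had 1.10, 2.51 and 1.82 FPKM with LPS and 0.915, 2.23 and 2.06 with ultrasound. Mybl2, which encodes B-MYB, had 3.18 ± 0.544 and 3.16 ± 0.203 FPKM, with a 95% interval of the log2 difference from -0.28 to 0.28 in limma. The MuvB subunit genes Lin9, Lin37, Lin52 and Lin54, whose products bind CHR elements as a complex, differed by -0.14 ± 0.11, -0.07 ± 0.12, -0.13 ± 0.10 and -0.18 ± 0.20. The repressor gene E2f4 had 30.9 ± 0.587 and 31.2 ± 1.01 FPKM, and Cdkn1a, the p21 gene for an inhibitor of cyclin-dependent kinases, 29.4 ± 6.05 and 29.7 ± 3.62. E2f5, a related repressor gene, had 16.6, 17.6 and 16.6 FPKM with LPS and 13.0, 11.3 and 11.6 with ultrasound, with no overlap (log2 difference -0.47 ± 0.08, limma, adjusted p = 0.14). Of the NF-Y subunit genes, Nfyb had 1.96 ± 0.507 and 1.29 ± 0.152 FPKM, and Nfyc was higher with ultrasound in every library, at 4.81 ± 0.549 and 6.09 ± 0.288.

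Most members were rare transcripts, and this limits each value. From the steps of low FPKM values, 25300000 to 29300000 fragments per library would follow if a step were 1 fragment. With the longest annotated transcript of each gene, the lowest member value would then rest on 33 fragments, for Spc24 in LPS library 3. The highest would rest on 2708, for Bub1b in LPS library 2. Gene models that share exonic bases with another gene make further values uncertain. Besides Kif20a these are mainly Ube2c (22.8% of its bases, with Tnnc2), Kif4 (15.1%, with the more abundant Pdzd11), Cdc25c (12.7%, with Gm3550) and Prc1 (11.1%, with Rccd1), all on the opposite strand. Tnnc2 and Gm3550 averaged only 0.0329 and 0.0309 FPKM, far below Ube2c at 2.50 and Cdc25c at 1.02.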

How the data were processed

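The deposited table held FPKM values made by the authors for 55335 mouse Ensembl identifiers in 6 libraries. All identifiers were mouse ones, whereas the submitters' processing notes name the rat build mRatBN7.2. For the aligner, counter, annotation and strandedness, nothing is stated (not given in the sources used here). FPKM sums ran from 278871 to 292200. From the steps of low values, 25300000 to 29300000 fragments per library are implied, but only 15.9% to 17.6% of them lay within 0.02 of a whole step, so no counts were recovered. An exact 0 can be a failed estimate, since 10 genes were at 0 in 1 library and above 5 FPKM in another.

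Genes averaging 1 FPKM or more (11270, with 44065 left out) were fitted as log2(FPKM + 1) in limma 3.58.1 (R 4.3.3) with a trended, robust prior, LPS plus ultrasound against LPS, with Benjamini-Hochberg adjustment over all tested genes and a threshold of 0.05. The pseudocount understates the change of low genes. The script was tested on simulated data. Same-numbered libraries deviated together from their group means (r = 0.18, 0.44 and 0.41 over all tested genes, against -0.40 to 0.06 for other pairs), so the numbers were taken to pair them, a hint from the data since the labels name no shared source. Deviations from a group mean cancel out within the group. Low values for other pairs therefore follow from high ones for same-numbered pairs and are not separate evidence of pairing. The block is an alternative to the unblocked model.

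Members and lists were chosen with earlier results of these data known. In each role the 3 tested members with the smallest limma p and 8 preset genes have values for every library. From each list the 3 genes with the smallest p and 8 preset regulators are named, with Zwint added for its level. The promoters printed are those of the 5 members with the smallest p that hold the CHR core. Sequences came from RefSeq windows (GRCm38.p6) and overlaps from GENCODE M21. Alternatives changed the pseudocount, filter, scaling, moderation, library weights, block and libraries.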

Additional observations from a re-analysis of the deposited data

How the results depend on the processing

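Over 19 alternatives the median log2 difference of the tested members stayed between -0.315 and -0.152, and over the 4 scalings 36 to 38 of 40 members were lower. Of 718 member values, 698 kept their direction and side of the threshold, and 33 members were negative in each setting that tested them. No member passed the adjusted threshold of limma except with library weights, which called 2, Bub1b at -0.622 and Cenpa at -0.529. Members lower at an unadjusted limma p below 0.05 numbered 7 in the model reported, where 9.16% of all tested genes were lower at that p. They numbered 20 with the replicate block (17.1% of all tested genes), 19 with the block and median-ratio scaling (14.7%) and 13 with library weights (14.9%). With a mean of at least 5 FPKM, which tests 12 members, they numbered 4 (8.75%), and with 1 library left out 3 to 13 (5.66% to 10.1%). Members with no overlap between groups numbered 12, 4 with the 5 FPKM filter, 20 without both libraries numbered 2 and 11 to 27 with 1 library left out. Members lower in each pair numbered 29, 9 with the 5 FPKM filter and 28 to 35 with 1 library left out. With libraries left out only 2 pairs remain in place of 3, and both criteria are easier to meet, so those counts cannot be set against 12 and 29. The shares of all tested genes for these criteria were not computed in the alternatives. Over all genes, limma called 2 higher and 0 lower, at an unadjusted p below 0.05 697 and 1032. These calls were 4 and 9 with the replicate block, 5 and 13 with the block and median-ratio scaling, 71 and 152 with library weights, 4 and 1 with each library scaled to the same FPKM sum, with or without mitochondrially encoded genes, 5 and 1 without both libraries numbered 2, 1 and 0 with the 5 FPKM filter, and 2 to 6 and 0 to 2 with 1 library left out. The share of higher genes among those at an unadjusted p below 0.05 was 40.3%, and 30.2% with equal FPKM sums. The causes were not tested.

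The difference changed sign in 6 members, among them Spc25 and Ccnb2, which were at -0.21 and -0.20 in the model reported. Kif20a was 0.000554 with median-ratio scaling, with and without the replicate block, 0.0304 with quantile normalization and 0.0525 with library weights, where Ccnb2 was 0.0207 and Bub3 -0.0126. Spc24 was -0.00778 with equal FPKM sums. With 1 library left out, Kif20a ran from -0.0696 to 0.0163 (without ultrasound library 1 and 3; 0.00596 without LPS library 3 and 0.00607 without ultrasound library 2), Spc25 from -0.33 to 0.00464 (without LPS library 3 and 2), Ccnb2 from -0.424 to 0.00682 (the same libraries), Bub3 from -0.00507 to 0.198 (without ultrasound library 2 and 1), Ccnf from -0.189 to 0.0245 (without ultrasound library 3 and 2) and Spc24 from -0.0984 to 0.116 (without LPS library 3 and ultrasound library 3), with Spc24 also at -0.0607, -0.0584 and -0.0492 without LPS library 1, ultrasound library 1 and ultrasound library 2. In the 200 bases nearest the start, 74.4% of members and 12.8% of all genes held the CHR core, and 76.9% and 31.9% a CCAAT box. The core with 2 or more CCAAT boxes was in 38.5% of members and 0.999% of all genes. The variant was in 3 members (7.69%) and 1.03% of all genes, and its match in Bub1b lies outside this window.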

Other observations

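The 4 members whose promoter window held the CHR variant TTCGAA were Bub1b, Bub1, Cdc25b and Top2a, chosen for mention after their values were seen. Their log2 differences ran from -0.73 for Bub1b to -0.255 for Cdc25b, with a median of -0.42. The 30 tested members with a window but without the variant had a median of -0.20. The variant began 15 bases after the start of Bub1 and 8 after that of Cdc25b, which lack the CHR core, and 188 bases before the start of Bub1b. With 4 genes of 1 pair of groups this is a description and was not tested.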
